A study of Homo sapiens with 6 samples.

Results

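The SR and hnRNP splicing regulators were examined after treatment of MDA-MB-231, a long-established human line of triple-negative breast cancer, with VNLG-152R. Genes were chosen by symbol, as SRSF followed by a number or HNRNP followed by a letter, and had to be protein-coding in both GENCODE release 29 and RefSeq. This gave 38 genes, 12 of the SR family and 26 of the hnRNP family, out of 61552 gene identifiers in the deposited counts. The symbol patterns alone fit 164 identifiers, most of them pseudogenes, which were left out together with the readthrough HNRNPUL2-BSCL2.

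VNLG-152R, a retinamide described by the study as a degrader of the MNK1 and MNK2 kinases, was given at 10 μM for 24 h (3 libraries), and the vehicle control cells received DMSO (3 libraries). Both groups are the same line, so all values come from 1 cell line at 1 dose and 1 time. The cells were treated in triplicate. The statistics section of the study speaks in general of independent experiments, but neither it nor the labels say whether this holds for the sequenced triplicates, and the p-values therefore reflect no more than the variation among these 6 libraries, which may be technical. Strand-specific libraries of polyadenylated RNA were sequenced from both ends. Counts per gene were deposited for each library and are given here as CPM, counts scaled by TMM normalization to a common library size and composition.

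Gene-assigned counts numbered 69923839 to 82151816 per VNLG-152R library and 60122936 to 68583224 per vehicle control library, so that all treated libraries were deeper. Read pairs outside annotated genes made up 3.36% to 5.05% with VNLG-152R, highest in replicate 2, and 2.63% to 3.17% in vehicle controls. All 8 basal or mesenchymal markers were above 1 CPM, and of 8 luminal markers the hormone receptors ESR1 and PGR and the adhesion gene CDH1 were below 1 CPM in the mean of each group. The other 5 luminal markers were detected, with KRT19 at 720 CPM, ERBB2 at 98.5, EPCAM at 11.6, GATA3 at 4.61 and FOXA1 at 1.46 CPM with VNLG-152R, against 694, 90.3, 13.4, 5.41 and 1.43 CPM in vehicle controls. The summed level of the 8 basal or mesenchymal markers was 7569 to 9453 CPM with VNLG-152R and 10153 to 10435 CPM in vehicle controls. VIM, the most abundant, averaged 3867 and 5079 CPM. In the test described below, VIM and CAV1 were called lower (edgeR adjusted p = 0.0472 and 0.0048). ANXA1 lay fully below controls without passing. The groups of CD44, AXL, PLAUR, LAMB3 and KRT7 overlapped, with KRT7 at a positive log2 fold change of 0.09. The 4 endothelial markers summed to 58.0 to 60.7 CPM with VNLG-152R and 33.6 to 39.2 CPM in vehicle controls, with CDH5 and VWF near 0. KDR averaged 34.4 CPM with VNLG-152R and 12.7 CPM in vehicle controls (log2 fold change 1.44, edgeR adjusted p = 1.05e-05). PECAM1 averaged 25.1 and 23.1 CPM, with overlapping groups. With VNLG-152R, 8 luminal, 5 immune and 5 fibroblast markers summed to 770 to 947, 2.78 to 3.64 and 18.3 to 22.0 CPM, against 774 to 839, 3.48 to 3.88 and 19.7 to 20.8 CPM in vehicle controls. The part of these markers and of the unassigned pairs in the values below was not tested.

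SR proteins carry RNA recognition motifs and a domain rich in arginine and serine, bind exonic enhancers and recruit the U1 and U2AF components of the splicing machinery. Kinases of the SRPK and CLK families phosphorylate that domain, which governs import into the nucleus and activity in splicing. hnRNP proteins coat nascent transcripts through RNA recognition or KH domains and often act through silencers, so that the balance of both families helps set which exons are kept. MNK kinases are known to phosphorylate hnRNP A1, the product of HNRNPA1. Many SR genes hold a poison exon, an exon with an early stop codon whose inclusion sends the transcript to nonsense-mediated decay and lowers the output of the gene.

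In GENCODE release 29 all 11 SR genes that could be tested, and 12 of the 20 such hnRNP genes, had a transcript of the nonsense-mediated decay class. An internal exon that ends the reading frame in such a transcript and touches no coding transcript was found for 5 SR and 2 hnRNP genes. A gene count pools these transcripts with the productive ones, so the values below say nothing of exon choice. The start of such an exon is shown for 4 SR genes, to show what an annotated early stop of this class looks like. Where a gene has several such exons, as SRSF3, SRSF4 and SRSF7 do, the one in the transcript with the most exons was taken, and whether it is the exon through which the gene limits its own expression was not tested. Each sequence is from GRCh38, runs 5′ to 3′ in the sense of the gene and ends at the in-frame stop codon, in capitals.
SRSF3: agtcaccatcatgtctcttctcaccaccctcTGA
SRSF7: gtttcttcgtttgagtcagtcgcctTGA
SRSF4: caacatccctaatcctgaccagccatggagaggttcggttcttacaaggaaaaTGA
SRSF6: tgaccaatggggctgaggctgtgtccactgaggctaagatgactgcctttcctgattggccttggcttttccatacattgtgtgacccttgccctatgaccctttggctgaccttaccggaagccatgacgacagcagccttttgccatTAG
The SRSF3 stretch lies at chr6:36599821-36599854 on the plus strand, in exon 4 of 7, an exon of 456 bases. The SRSF7 stretch lies at chr2:38749319-38749346 on the minus strand, in exon 4 of 9, which has 449 bases. The SRSF4 stretch lies at chr1:29166009-29166064 on the minus strand, in exon 4 of 8, which has 175 bases. The SRSF6 stretch lies at chr20:43459153-43459304 on the plus strand, in exon 3 of 7, which has 268 bases.

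Levels of different genes were compared as CPM per kilobase of annotated exon, a scale on which a gene with many retained introns or long untranslated ends in its annotation reads low. HNRNPA1, which encodes the most studied hnRNP repressor, was highest at 245 CPM per kilobase with VNLG-152R and 260 in vehicle controls. It was followed by HNRNPAB at 157 and 178 and by HNRNPK, whose product binds C-rich RNA through KH domains, at 153 and 157 CPM per kilobase. The HNRNPK libraries held 764, 783 and 795 CPM with VNLG-152R, against 781, 823 and 810 CPM in vehicle controls, and the groups overlapped. HNRNPA2B1, HNRNPF and HNRNPC stood next, with 122, 118 and 104 CPM per kilobase with VNLG-152R and 129, 125 and 120 in vehicle controls. SRSF9 and SRSF2 led the SR family, with 67.5 and 62.0 CPM per kilobase with VNLG-152R and 73.5 and 73.4 in vehicle controls, so their order was not resolved in vehicle controls.

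**Figure D1:**
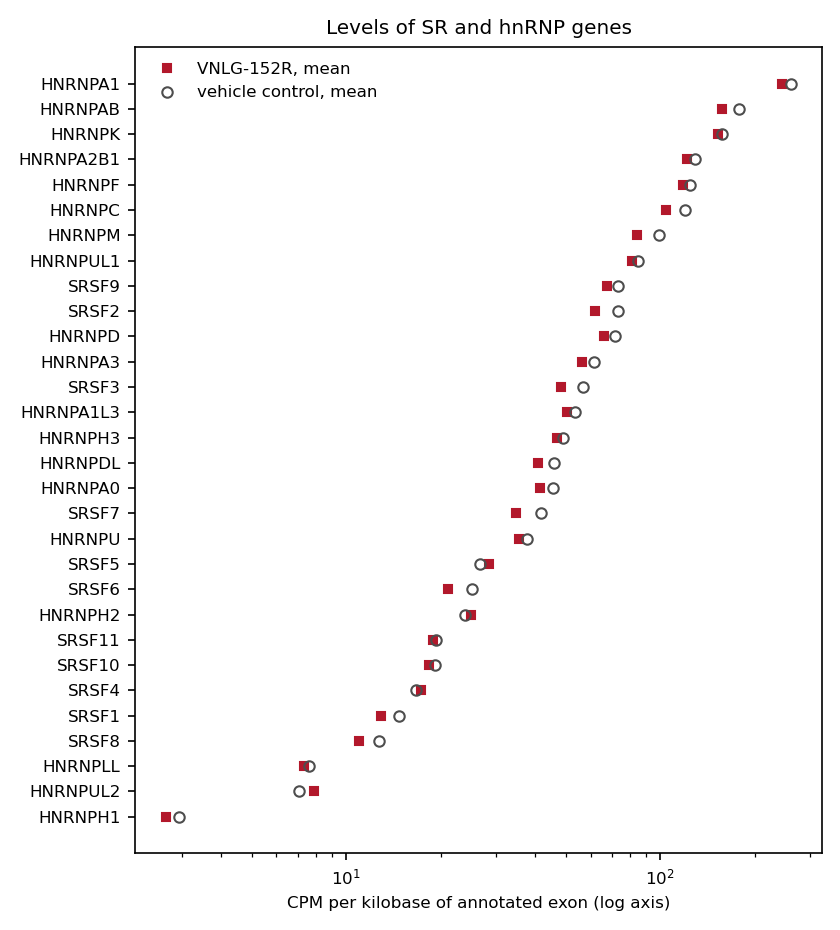
Mean level of 30 SR and hnRNP genes averaging 10 CPM or more, as CPM per kilobase of annotated exon on a log axis, with VNLG-152R as filled squares and vehicle control as open circles (3 libraries each). As counted, the genes span a range from HNRNPH1, at 2.68 and 2.94 CPM per kilobase, to HNRNPA1, at 245 and 260. The 2 groups lie close together for each gene.

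The lowest of the genes averaging 10 CPM or more were HNRNPLL, HNRNPUL2 and HNRNPH1. HNRNPLL stood at 7.35 CPM per kilobase with VNLG-152R and 7.60 in vehicle controls, HNRNPUL2 at 7.91 and 7.08, and HNRNPH1 at 2.68 and 2.94. These are levels as counted. HNRNPUL2 shares 44.1% of its exon bases with HNRNPUL2-BSCL2. HNRNPH1 averaged 25.4 CPM with VNLG-152R and 27.9 in vehicle controls, below HNRNPH2 at 55.6 and 53.0. Whether the counting lowered these levels was not tested. HNRNPLL, known for directing the splicing of CD45 in lymphocytes, had 41.2, 45.5 and 43.8 CPM with VNLG-152R, against 48.5, 42.4 and 44.2 CPM in vehicle controls. HNRNPH1, whose product binds G-rich elements, had 23.1, 26.9 and 26.1 CPM with VNLG-152R, against 33.2, 23.3 and 27.1 CPM in vehicle controls. In both genes vehicle control replicate 1 was the highest library and the groups overlapped.

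No SR or hnRNP gene passed the test for a difference between VNLG-152R and vehicle control. Of the 38 genes, 31 passed the filter on low counts and entered the quasi-likelihood test of edgeR, with Benjamini-Hochberg adjustment over 17084 genes, where a gene was called at an adjusted p under 0.05. Of the 31, 0 were higher and 0 lower, where 5.19% of all tested genes were called, 3.76% higher and 1.43% lower. At an unadjusted p under 0.05, 0 of the 31 genes were higher and 7 lower, against 12.8% and 9.76% of all tested genes. DESeq2 and limma-voom also called 0 of the 31. In bulk RNA, fewer cells of a kind and less RNA per cell cannot be told apart.

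The fitted differences nevertheless lay mostly on 1 side of 0. The log2 fold change of VNLG-152R over vehicle control was negative for 26 of the 31 genes, with a median of -0.09 (-0.19 for 11 SR and -0.09 for 20 hnRNP genes), beside a median of -0.00 over all tested genes. The 3 VNLG-152R libraries were all below the 3 vehicle control libraries for 10 of the 31 genes (32.3%) and all above for 1, HNRNPUL2, while the shares over all tested genes were 13.4% below and 15.1% above. Among genes averaging 10 CPM or more, which the members nearly all are, 16.7% of 9311 lay fully below and 54.5% were negative, beside 8 of 19 hnRNP genes (42.1%) and 2 of 11 SR genes (18.2%) fully below. These counts are descriptions without a test over the list. Without vehicle control replicate 1, 22 of the 31 genes were negative and 1 lay lower at an unadjusted p under 0.05.

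**Figure D2:**
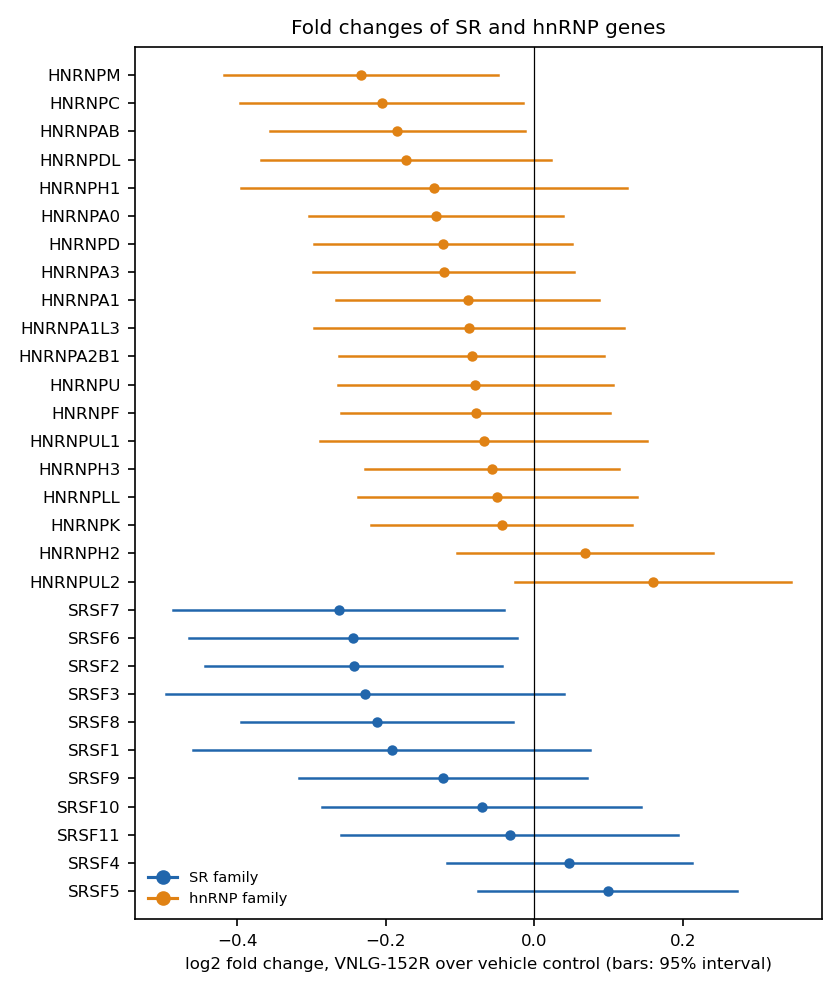
Log2 fold change of VNLG-152R over vehicle control for 30 SR and hnRNP genes averaging 10 CPM or more, from edgeR on 3 libraries per group, with bars for the 95% interval. Most points lie left of 0, between -0.26 for SRSF7 and 0.16 for HNRNPUL2, and the bars of 7 genes stay below 0 before adjustment for multiple testing.

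For the 30 genes averaging 10 CPM or more, standard errors ran from 0.08 to 0.12 on the log2 scale. The lowest bound of a 95% interval was -0.50, for SRSF3, a change of -29.1%. The highest bound was 0.35, for HNRNPUL2, a change of 27.1%. Larger differences than these lay outside the intervals of all 30 genes.

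Among the SR genes, SRSF7 had the most negative fold change. SRSF7 (ENSG00000115875, chromosome 2, 38743599 to 38751494), whose product carries a zinc knuckle beside its RNA recognition motif and also acts in mRNA export, had 122, 161 and 139 CPM with VNLG-152R, against 177, 159 and 170 CPM in vehicle controls. Only VNLG-152R replicate 2 reached into the vehicle control range, above vehicle control replicate 2. The means were 141 ± 19.8 and 169 ± 8.68 CPM (SD, n = 3 each), and the log2 fold change was -0.26 (standard error 0.10, edgeR adjusted p = 0.154). Without VNLG-152R replicate 2 it was -0.37 with an adjusted p of 0.053 from edgeR, and over all omissions of 1 library it lay between -0.37 and -0.17.

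SRSF2 (ENSG00000161547, chromosome 17, 76734115 to 76737374), which encodes SC35, a classical marker of nuclear speckles, had 192, 182 and 187 CPM with VNLG-152R, against 247, 199 and 219 CPM in vehicle controls. All treated libraries lay below all controls, with vehicle control replicate 1 the highest, and 36.7% of the exon bases of SRSF2 lie opposite MFSD11 on the other strand. The log2 fold change was -0.24 (standard error 0.09, edgeR adjusted p = 0.143). SRSF8, a relative of SRSF2, had 43.3, 41.9 and 47.9 CPM with VNLG-152R, against 53.1, 50.3 and 50.7 CPM in vehicle controls. These groups did not overlap either, and the log2 fold change was -0.21 (standard error 0.08, edgeR adjusted p = 0.161).

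SRSF6, an activator of exon inclusion, had 88.5, 103 and 100 CPM with VNLG-152R, against 130, 102 and 113 CPM in vehicle controls. Its log2 fold change was -0.24 (standard error 0.10, edgeR adjusted p = 0.178), with vehicle control replicate 2 inside the treated range. SRSF3, the smallest SR protein and a growth-promoting factor, had 292, 404 and 339 CPM with VNLG-152R, against 461, 365 and 386 CPM in vehicle controls. The highest treated library exceeded the lower controls, and the log2 fold change was -0.23 (standard error 0.12, edgeR adjusted p = 0.299). SRSF1, the prototype of the family, had 38.1, 47.1 and 43.8 CPM with VNLG-152R, against 59.1, 42.7 and 45.6 CPM in vehicle controls, a log2 fold change of -0.19 (edgeR adjusted p = 0.381). Without vehicle control replicate 1, the log2 fold change was -0.04 for SRSF1, -0.12 for SRSF3, -0.15 for SRSF6 and -0.16 for SRSF2. Without VNLG-152R replicate 1 it was -0.11 for SRSF1, -0.12 for SRSF3 and -0.17 for SRSF7, and without VNLG-152R replicate 2 it was -0.35 for SRSF3. For SRSF1 it was -0.29 without vehicle control replicate 2. Of the exon bases of SRSF1, 56.6% are shared with AC015813.2 on the same strand, so its level depends on how the counting treated pairs that fit both genes.

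The other SR genes differed by less. SRSF9, SRSF10 and SRSF11 had log2 fold changes of -0.12, -0.07 and -0.03. SRSF5 and SRSF4 were the only tested SR genes with positive values, 0.10 and 0.05. SRSF5, first described as a delayed-early gene of regenerating rat liver, had 148, 162 and 150 CPM with VNLG-152R, against 148, 144 and 136 CPM in vehicle controls, and the groups overlapped. All 5 had edgeR adjusted p-values of 0.446 to 0.883. SRSF9 shares 46.2% of its exon bases with GATC on the opposite strand.

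**Figure D3:**
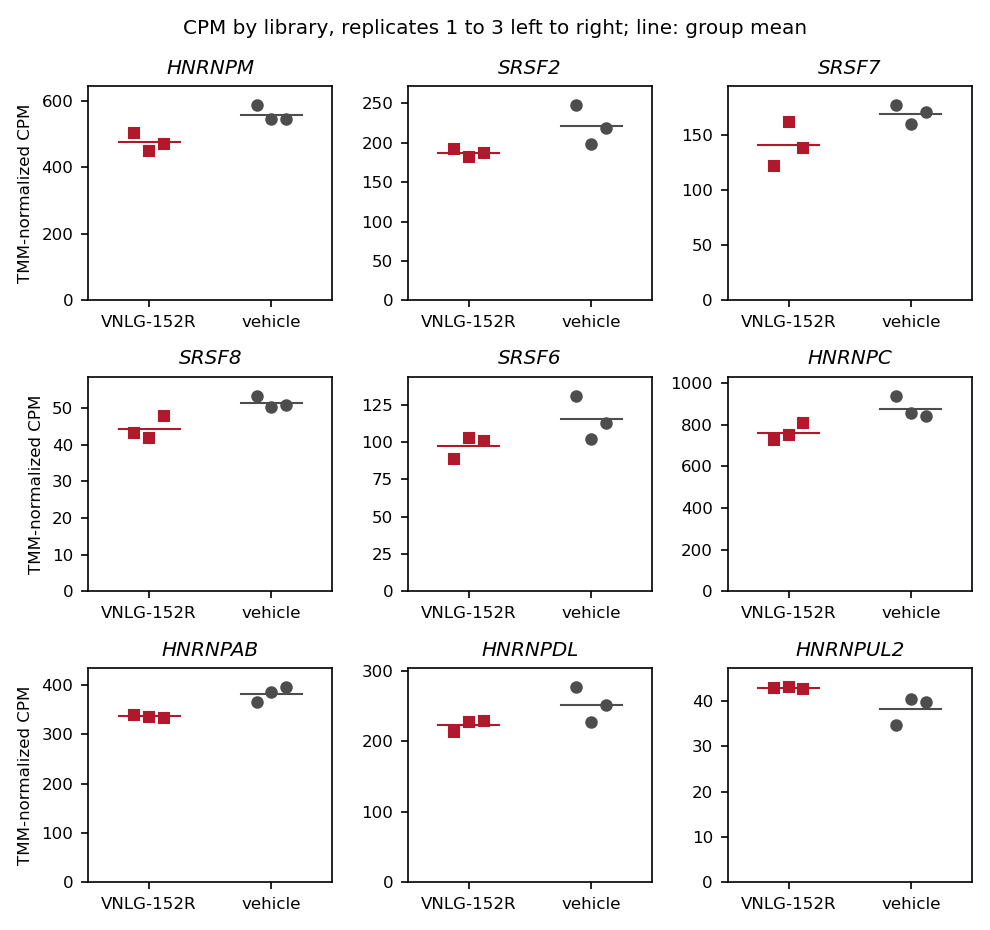
CPM in each library for 9 genes, with VNLG-152R as squares on the left and vehicle control as circles on the right, replicates 1 to 3 from left to right within a group and a line at the group mean. HNRNPM, SRSF2, SRSF8, HNRNPC and HNRNPAB have all treated libraries below all controls, HNRNPUL2 has them all above, and SRSF7, SRSF6 and HNRNPDL overlap.

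The SR genes varied together between libraries of the same group. Vehicle control replicate 1 was the highest control for 10 of the 11 tested SR genes and vehicle control replicate 2 the lowest for 9. Among the treated libraries, VNLG-152R replicate 2 was the highest and replicate 1 the lowest for 8 each. The 20 tested hnRNP genes held no such order, with vehicle control replicate 1 highest for 8 and lowest for 11. The median coefficient of variation was 7.54% with VNLG-152R and 10.4% in vehicle controls over the SR genes, 3.17% and 4.54% over 19 hnRNP genes, and 7.76% and 6.04% over all genes averaging 10 CPM or more. Pairs outside annotated genes made up 3.52%, 5.05% and 3.36% in VNLG-152R replicates 1 to 3. In vehicle control replicates 1 to 3 they made up 3.17%, 2.63% and 3.05%, in the same order as the SR sums of the controls. Among treated libraries replicate 2 was highest in both, but replicate 1 had more such pairs than replicate 3 and a lower SR sum. Treated libraries had more such pairs than controls and a lower mean SR sum (1764 against 1937 CPM). The part of these pairs in the SR values was not tested. CLK1, a kinase of SR proteins, showed the same order among controls, with 35.3, 40.9 and 42.8 CPM with VNLG-152R, against 56.1, 39.9 and 47.9 CPM in vehicle controls (log2 fold change -0.27, edgeR adjusted p = 0.199). It was singled out after its values were seen.

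**Figure D4:**
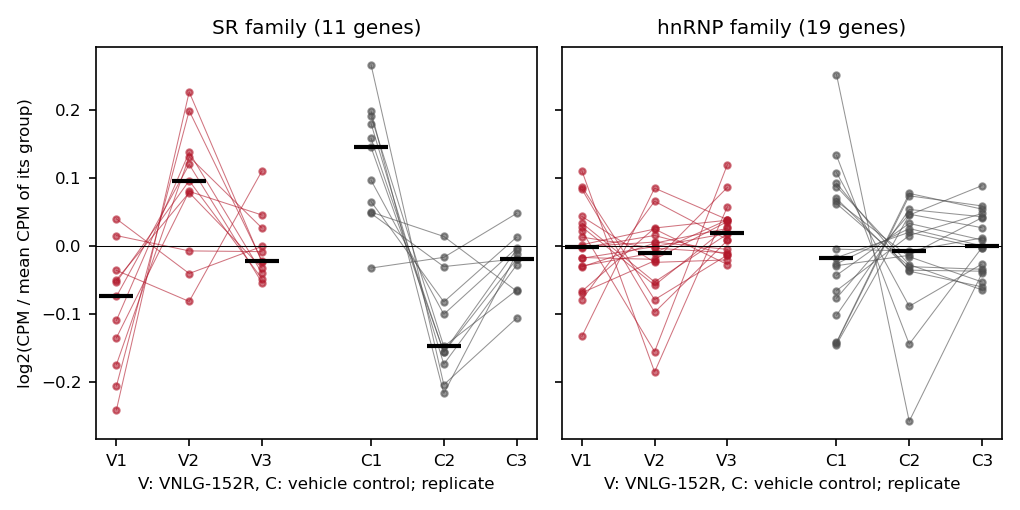
Log2 ratio of the CPM in each library to the mean of its own group, for 11 SR genes (left) and 19 hnRNP genes (right) averaging 10 CPM or more. VNLG-152R replicates (V1 to V3) stand left of vehicle control replicates (C1 to C3), thin lines join the libraries of a gene, and black bars are medians. The SR genes sit high in C1 and V2 and low in C2 and V1, and the hnRNP medians stay near 0.

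This spread set how firmly the SR values can be read. The median log2 fold change of the SR genes lay between -0.23 and -0.07 over all omissions of 1 library, with -0.07 without vehicle control replicate 1, and that of the hnRNP genes between -0.10 and -0.07. Summed over the family, SR genes gave 1647, 1905 and 1740 CPM with VNLG-152R, against 2121, 1783 and 1908 CPM in vehicle controls. The means of 1764 ± 131 and 1937 ± 171 CPM (SD, n = 3 each) differed by -8.93%, and the groups overlapped. The hnRNP genes gave 8432, 8127 and 8487 CPM with VNLG-152R, against 8983, 9024 and 9010 CPM in vehicle controls. Here the means were 8349 ± 194 and 9006 ± 20.8 CPM (SD, n = 3 each), a difference of -7.30%, and the groups did not overlap. Both families together took 0.975% to 1.03% of all counts with VNLG-152R and 1.07% to 1.12% in vehicle controls. An exact permutation test of 3 against 3 libraries cannot give a two-sided p under 0.10, so none is given for the sums.

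**Figure D5:**
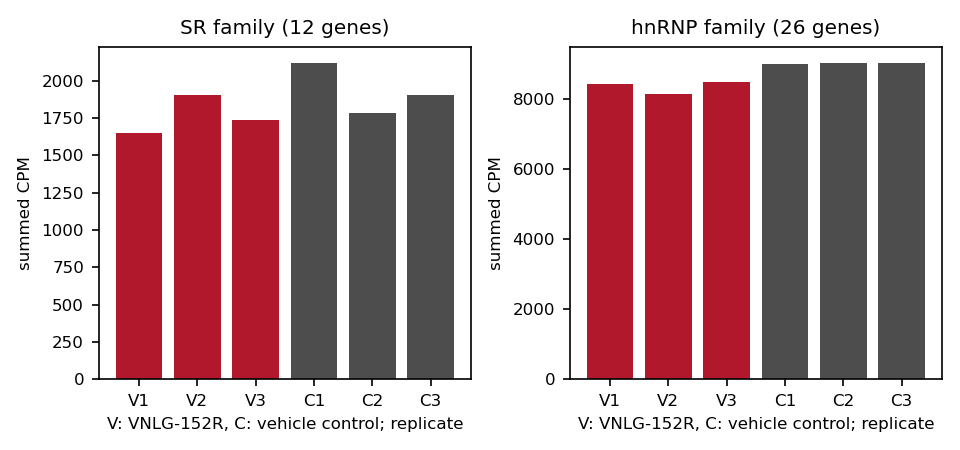
Summed CPM of the 12 SR genes (left) and the 26 hnRNP genes (right) in each library, VNLG-152R replicates V1 to V3 left of vehicle control replicates C1 to C3, on axes that start at 0. The hnRNP bars lie between 8127 and 8487 CPM with VNLG-152R and between 8983 and 9024 CPM in vehicle controls, and the SR bars of the groups overlap.

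HNRNPM had the smallest p of all 31 genes. HNRNPM (ENSG00000099783, chromosome 19, 8444767 to 8489114), known as a splicing factor that favors the mesenchymal form of CD44 in breast cancer cells, had 504, 449 and 470 CPM with VNLG-152R, against 586, 544 and 544 CPM in vehicle controls. All treated libraries lay below all controls, with means of 475 ± 27.7 and 558 ± 24.0 CPM (SD, n = 3 each). The log2 fold change was -0.23 (standard error 0.09, edgeR adjusted p = 0.131), and it lay between -0.28 and -0.19 over all omissions of 1 library.

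HNRNPC, whose product binds uridine tracts and keeps cryptic Alu exons out of mRNA, had 726, 750 and 808 CPM with VNLG-152R, against 936, 856 and 842 CPM in vehicle controls. The groups did not overlap, and the log2 fold change was -0.21 (standard error 0.09, edgeR adjusted p = 0.188). HNRNPAB, which encodes a protein of the A/B class, had 339, 335 and 334 CPM with VNLG-152R, against 365, 386 and 395 CPM in vehicle controls. These groups were also apart, at a log2 fold change of -0.18 (standard error 0.08, edgeR adjusted p = 0.189).

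HNRNPD encodes AUF1, which binds AU-rich elements and speeds mRNA decay, and HNRNPDL is its close relative. HNRNPD had 462, 470 and 453 CPM with VNLG-152R, against 525, 492 and 491 CPM in vehicle controls, a log2 fold change of -0.12 (edgeR adjusted p = 0.390). HNRNPDL had 213, 227 and 229 CPM with VNLG-152R, against 276, 228 and 251 CPM in vehicle controls, a log2 fold change of -0.17 (edgeR adjusted p = 0.280). The groups were apart for HNRNPD and overlapped for HNRNPDL, whose log2 fold change was -0.10 without vehicle control replicate 1. HNRNPA0, an intronless gene whose product also binds AU-rich elements, had 373, 356 and 357 CPM with VNLG-152R, against 389, 393 and 408 CPM in vehicle controls. Its groups were apart at a log2 fold change of -0.13 (standard error 0.08, edgeR adjusted p = 0.347). It was the only member called under any alternative, with a log2 fold change of -0.32 (edgeR adjusted p = 0.0349) after a correction for transcript length. Its median transcript, of 8726 bases, was the longest among the 31 tested members.

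The abundant core proteins differed by less. HNRNPA1 had 1231, 1229 and 1277 CPM with VNLG-152R, against 1322, 1319 and 1337 CPM in vehicle controls, with no overlap. Its log2 fold change was -0.09 (standard error 0.08, 95% interval -0.27 to 0.09, edgeR adjusted p = 0.549). HNRNPA2B1, whose product also sorts RNA into vesicles, had 1158, 1091 and 1145 CPM with VNLG-152R, against 1185, 1216 and 1197 CPM in vehicle controls, a log2 fold change of -0.08, again with no overlap. HNRNPA3 was the last of the 10 genes with treated libraries fully below controls, at a log2 fold change of -0.12 (edgeR adjusted p = 0.398). HNRNPA1 made up 14.9% of the hnRNP sum with VNLG-152R and 14.7% in vehicle controls, and SRSF3 made up 19.5% and 20.8% of the SR sum.

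Reads of HNRNPA1, HNRNPA3, HNRNPC and HNRNPK can also fit near-identical processed copies, so these levels are uncertain where the counting could split them. HNRNPA1P10, for example, held 2212, 2348 and 3023 counts with VNLG-152R and 2220, 2178 and 2578 in vehicle controls. HNRNPA1L3, a retrotransposed copy of HNRNPA1 listed as protein-coding, had a log2 fold change of -0.09, which lay between -0.16 and -0.015 over all omissions of 1 library, and is uncertain for the same reason.

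HNRNPUL2 was the only gene with treated libraries fully above controls. HNRNPUL2, a relative of the scaffold protein hnRNP U with a part in DNA end resection, had 42.8, 43.0 and 42.7 CPM with VNLG-152R, against 34.7, 40.4 and 39.8 CPM in vehicle controls. Its log2 fold change was 0.16 (standard error 0.09, edgeR adjusted p = 0.296), and 44.1% of its exon bases are shared with HNRNPUL2-BSCL2, which was listed at 0 in all libraries. Without vehicle control replicate 1 its log2 fold change was 0.09. HNRNPU, HNRNPUL1, HNRNPF, HNRNPH3, HNRNPH1, HNRNPLL and HNRNPK had log2 fold changes of -0.14 to -0.04, and HNRNPH2 had 0.07. All 8 had overlapping groups. HNRNPUL1 had the opposite sign without VNLG-152R replicate 2 (0.02), as did SRSF10, SRSF11, HNRNPH1 and HNRNPLL without vehicle control replicate 1 (0.01 to 0.08).

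Some members were listed at or near 0, and their zeros cannot be read as absence. HNRNPL, which binds CA repeats and is used in most cell types, had 0, 0 and 1 counts with VNLG-152R and 0, 0 and 0 in vehicle controls. Its neighbor ECH1 was listed at 0 in all 6 libraries, and so, apart from 1 count in VNLG-152R replicate 3, was PRPF8, a core protein of the spliceosome that every cell needs. The copy HNRNPLP2 held 1317, 1226 and 1460 counts with VNLG-152R and 1170, 1092 and 1329 in vehicle controls. HNRNPR, a partner of the motor neuron protein SMN, had 0.562, 0.144 and 0.290 CPM with VNLG-152R, against 0.0986, 0.149 and 0.220 CPM in vehicle controls. Its groups overlapped, and its log2 fold change of 1.04 (standard error 0.49, edgeR adjusted p = 0.232) rests on 38, 11 and 24 counts with VNLG-152R and 6, 9 and 15 in vehicle controls. Without VNLG-152R replicate 1 it was 0.47. HNRNPA1L2 and HNRNPCL1 to HNRNPCL4 were at 0 in all libraries. SRSF12 held 0, 1 and 0 counts with VNLG-152R and 2, 0 and 0 in vehicle controls. The cause of these zeros was not tested.

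Factors that act with the SR and hnRNP proteins were described from lists of genes. Of 10 tested SR kinases and import receptors, 0 passed in either direction, with a median log2 fold change of 0.01. SRPK1, an SR kinase active in the cytoplasm, had a log2 fold change of 0.04 (edgeR adjusted p = 0.816). Of 27 SR-related proteins, 1 rose (3.70%, near the 3.76% of all tested genes) and 0 fell, with a median of 0.02. The gene that rose was SRRM2, a large scaffold of nuclear speckles, with 729, 615 and 597 CPM with VNLG-152R, against 415, 530 and 492 CPM in vehicle controls (log2 fold change 0.43, edgeR adjusted p = 0.0428). Its groups did not overlap.

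Of 8 hnRNP proteins under other symbols, 0 rose and 1 fell (12.5%, beside 1.43% of all tested genes), with a median of -0.11. RBMX, which encodes hnRNP G, fell to 176, 169 and 187 CPM with VNLG-152R, against 239, 214 and 214 CPM in vehicle controls (log2 fold change -0.33, edgeR adjusted p = 0.0446). Of 23 other sequence-specific splicing regulators, 0 passed in either direction, with a median of -0.06. At an unadjusted p under 0.05, the kinase list had 0 genes higher and 1 lower and this list 2 higher and 1 lower, where the shares over all tested genes were 12.8% higher and 9.76% lower. Of the 2 higher genes, TAF15 had only 19, 21 and 22 counts with VNLG-152R, against 8, 8 and 7 in vehicle controls. MATR3 and ESRP1 of this list also averaged under 1 CPM in both groups, as did DDX39B, DHX16 and PRPF31 of the core spliceosome list. Whether these values reflect low expression was not tested, as for the members listed near 0. All of these genes stay in the medians and counts of their lists.

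Of 44 core spliceosome genes, 0 rose and 2 fell (4.55%, beside 1.43% of all tested genes). The median log2 fold change was -0.14. Of the 44, which include genes under 10 CPM, 37 were negative. Beside this, 8603 of all 17084 tested genes and 54.5% of those averaging 10 CPM or more were negative. SNRPC, a component of the U1 particle that meets the 5′ splice site, fell to 139, 148 and 129 CPM with VNLG-152R, against 186, 177 and 181 CPM in vehicle controls (log2 fold change -0.39, edgeR adjusted p = 0.0210). SNRPD1, a protein of the Sm ring, fell to 70.7, 81.9 and 83.1 CPM with VNLG-152R, against 110, 93.6 and 97.8 CPM in vehicle controls (log2 fold change -0.36, edgeR adjusted p = 0.0497). Treated libraries lay fully below controls for 15 of the 44 (34.1%), beside 13.4% of all tested genes and 16.7% of those averaging 10 CPM or more.

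Of 16 genes of the exon junction complex and of nonsense-mediated decay, the route that removes poison-exon transcripts, 1 rose and 1 fell (6.25% each, beside 3.76% and 1.43% of all tested genes), with a median of -0.07. SMG1, the kinase that phosphorylates UPF1, had 178, 186 and 166 CPM with VNLG-152R, against 111, 157 and 121 CPM in vehicle controls (log2 fold change 0.45, edgeR adjusted p = 0.0461). RBM8A, the Y14 subunit of the exon junction complex, had 34.5, 37.3 and 40.7 CPM with VNLG-152R, against 50.0, 45.4 and 48.3 CPM in vehicle controls (log2 fold change -0.35, edgeR adjusted p = 0.0409). All 6 of these calls were lost when some library was left out. SNRPC passed in 3 of 6 such fits, SRRM2 and SMG1 in 1 of 6 each, and RBMX, SNRPD1 and RBM8A in 0 of 6, with edgeR adjusted p-values of up to 0.185, while the fold changes kept their sign.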

How the data were processed

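The authors deposited raw counts of read pairs per Ensembl gene for each of the 6 libraries. The submitters' processing notes name HISAT, HTSeq, DESeq and GRCh38 without versions or roles. Release of the annotation and strand mode are not given in the sources consulted here. HTSeq's classes for pairs in no gene (2.63% to 5.05%), ambiguous pairs (4.81% to 5.16%) and pairs not aligned uniquely (7.81% to 8.12%) stayed out of totals.

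Counts were analysed in R 4.3.3 with edgeR 4.0.16 (TMM, filterByExpr, quasi-likelihood test with no covariates, 4 residual degrees of freedom, biological coefficient of variation 0.105) on all 6 libraries, with Benjamini-Hochberg adjustment over 17084 genes at 0.05. Standard errors are the size of the log2 fold change over the square root of F. The test was tested on simulated data. No 2 libraries agreed within counting noise. Coordinates, exon lengths, overlaps and transcript classes came from GENCODE release 29, which may not be the release counted against, and biotypes also from RefSeq.

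The members and lists were chosen with earlier results of these data known, the lists from memory. Values in every library are given for the 14 members with the smallest p. They are also given for the 3 most and 3 least abundant per kilobase among members averaging 10 CPM or more. A few others were added after their values were seen. From the lists, up to 4 genes per direction that passed are named. Alternatives were RLE factors, library size only, no filter (total above 0), an average of 1 CPM or more, DESeq2 1.42.0, limma-voom 3.58.1, a replicate block, leaving out each library, a transcript length correction (lowess, span 0.3) and thinning to the shallowest library (seed 1).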

Additional observations from a re-analysis of the deposited data

Results flagged for a closer look

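The percentage of read pairs outside annotated genes, a class that the comparisons do not use, was 3.52%, 5.05% and 3.36% in VNLG-152R replicates 1 to 3, against 3.17%, 2.63% and 3.05% in vehicle control replicates 1 to 3. It was singled out because each treated library lay above the highest vehicle control library.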

How the results depend on the processing

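No SR or hnRNP gene was called under RLE factors, library size only, no filter, an average of 1 CPM or more, DESeq2, limma-voom, the replicate block, thinning or the omission of any 1 library. The smallest adjusted p among the members in these was 0.0529, for SRSF7 without VNLG-152R replicate 2, and 0.0587 for HNRNPM with DESeq2. The correction for transcript length called 1 of 31 members lower, the hnRNP gene HNRNPA0 (log2 fold change -0.32), so that 1 hnRNP gene and 1 of all members were lower. The share of all genes called in that fit is not set beside this count, which is therefore a description only. HNRNPA0 had the longest median transcript of the 31 tested members, 8726 bases. The cause was not tested. Across genes, log2 fold changes had a Spearman's rho of 0.21 with transcript length (16725 genes, which are not independent replicates), and 0.07 over the 31 members. Over all genes, 642 higher and 245 lower became 1056 and 483 with no filter and 964 and 537 with DESeq2. Omitting 1 library gave 220 to 601 higher and 44 to 347 lower, and for the SR median -0.23 to -0.072. Over the same omissions the log2 fold change ran from -0.1466 to 0.0074 for SRSF10, -0.1344 to 0.077 for SRSF11, -0.2529 to 0.0083 for HNRNPH1, -0.096 to 0.0069 for HNRNPLL and -0.1349 to 0.0175 for HNRNPUL1, positive without VNLG-152R replicate 2 for HNRNPUL1 and without vehicle control replicate 1 for the other 4. The median over all genes stayed within 0.1 of 0 under each scaling. Same-numbered libraries did not deviate together (r = -0.19, -0.17 and -0.11). With 3 libraries per group this cannot decide whether same-numbered cultures were handled as pairs, which the labels do not state. With the replicate block, 310 genes were higher and 87 lower, 0 members were called and the smallest adjusted p among them was 0.304. All 6 named genes of the lists that passed lost their call under the block. SNRPD1 and RBM8A also lost it with library size only (adjusted p = 0.0751 and 0.0609) and with the length correction (0.0813 and 0.0888), and SNRPD1 with limma-voom (0.0503) and thinning (0.0556). Of 15 alternatives SNRPD1 passed in 4, RBM8A in 6, RBMX in 8, SRRM2 and SMG1 in 9 each and SNRPC in 11.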
